A study of Homo sapiens with 14 samples.

Results

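Messenger RNA of 9 genes of cystine import, cysteine synthesis and glutathione metabolism was followed through 14 sequencing libraries of human leukaemia lines. The genes were chosen by symbol with earlier results of these data known, so the numbers called beside all genes are descriptive. They are SLC7A11, CBS, CTH, GCLC, GCLM, GSS, CHAC1, GSR and GPX4. All 9 were found among 23861 named genes of the K562 table and among 19196 genes of the SIGM5 table, and all 9 entered every test. SIGM5, an acute myeloid leukaemia line, received 12.5 µM TETi76 or the solvent DMSO. K562, an erythroleukaemia line, was used as K18, labelled TET2-/-, which received DMSO only, and as K01. The series text names TET2+/+ and TET2-/- K562 cells, and the labels give K01 no knockout. K01 received 12.5 µM TETi76 with 100 µM ascorbate, 12.5 µM TETi76 alone, 100 µM ascorbate alone, or DMSO. Each of the 7 groups held 2 libraries, made after 24 h of treatment. TETi76 was used to inhibit the TET enzymes, dioxygenases that oxidise 5-methylcytosine in DNA. Ascorbate keeps the catalytic iron of such dioxygenases reduced. Each TET2 genotype was 1 named line, so genotype and line cannot be told apart. The labels do not say whether replicates were separate cultures, so every p-value measures the spread between these libraries, which may be technical.

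Glutathione is the main small thiol of the cell and is built from glutamate, cysteine and glycine. Cysteine is the scarce part. It enters as cystine through system xc-, an exchanger made of SLC7A11 and its partner chain SLC3A2, or is made from methionine by transsulfuration, in which CBS joins homocysteine with serine and CTH splits the product. Glutamate-cysteine ligase, with the catalytic chain GCLC and the modifier chain GCLM, carries out the limiting step of synthesis and GSS adds glycine. CHAC1 degrades glutathione inside the cell, GSR returns its oxidised form to the reduced one, and GPX4 spends it to detoxify lipid hydroperoxides, the step whose loss causes ferroptosis. The genes are known as targets of separate factors. NRF2 acts on GCLC, GCLM, GSR and SLC7A11, through antioxidant response elements, and ATF4 acts on SLC7A11, CTH, CBS and CHAC1.

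The 250 bases before the RefSeq start (GRCh38.p14) of 4 genes are given here because these genes moved furthest in opposite directions under TETi76 in K01, and because the known elements can be looked for in them. The table of windows had an entry that could be used for 6 of the 9 genes. Capitals mark a match to the antioxidant response element TGACNNNGC or to the CCAAT-enhancer-binding protein and ATF composite element TGATGNAA, searched on both strands. The first shares its letters TGAC with AP-1 sites.
CHAC1: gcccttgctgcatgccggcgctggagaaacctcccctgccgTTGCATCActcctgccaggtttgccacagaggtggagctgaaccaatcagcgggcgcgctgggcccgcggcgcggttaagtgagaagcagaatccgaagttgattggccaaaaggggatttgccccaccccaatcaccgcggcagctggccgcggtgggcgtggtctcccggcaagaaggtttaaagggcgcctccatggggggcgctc
GCLM: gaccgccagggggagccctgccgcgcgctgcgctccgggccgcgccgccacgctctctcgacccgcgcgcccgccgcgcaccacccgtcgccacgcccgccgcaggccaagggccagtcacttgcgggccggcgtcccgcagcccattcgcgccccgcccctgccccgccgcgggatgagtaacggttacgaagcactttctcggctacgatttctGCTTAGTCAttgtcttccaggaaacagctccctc
CTH: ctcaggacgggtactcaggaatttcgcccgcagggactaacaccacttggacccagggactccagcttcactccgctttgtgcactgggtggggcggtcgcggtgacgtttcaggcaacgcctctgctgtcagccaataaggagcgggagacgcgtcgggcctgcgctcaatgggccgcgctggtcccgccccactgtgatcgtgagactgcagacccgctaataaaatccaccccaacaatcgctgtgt
GCLC: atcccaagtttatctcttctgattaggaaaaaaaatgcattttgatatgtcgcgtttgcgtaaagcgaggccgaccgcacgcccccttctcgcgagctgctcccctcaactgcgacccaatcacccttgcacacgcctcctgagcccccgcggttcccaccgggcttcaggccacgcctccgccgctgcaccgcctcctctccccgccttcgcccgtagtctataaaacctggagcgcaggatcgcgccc

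The CHAC1 window lies at chr15:40953221-40953470 on the plus strand, and the composite element is read on its minus strand at positions -209 to -202 from the start. GCLM has its window at chr1:93909431-93909680 on the minus strand, with an antioxidant element on the opposite strand at -34 to -26. The windows of CTH (chr1:70411018-70411267, plus strand) and GCLC (chr6:53545102-53545351, minus strand) hold neither set of letters, which speaks only of these 250 bases. CBS, which also fell under TETi76, has 3 windows in the table, all inside its annotated span, and 1 of them holds an antioxidant element at -83 to -75. No window of GPX4 holds either element. Among all 35116 windows of that length, 10.9% held the antioxidant element and 3.14% held the composite one. A match is a description of the letters and not a measured binding site.

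SIGM5 values were raw counts, with totals of 18893636 to 23639198 per library, and are given as CPM, counts scaled to library totals after TMM normalization. K562 values were FPKM (fragments scaled to gene length and library total), and the relative depth recovered from the smallest steps ran from 0.5254 in a TETi76 with ascorbate library to 1.0 in a K01 DMSO library. TET2 RNA was not detectably lower in the line labelled as knockout: it was at 3.31 and 2.94 FPKM in the libraries labelled TET2-/- (K18), against 1.99 and 2.40 FPKM in K01 DMSO (limma, log2 0.37, adjusted p = 0.314), a check that says nothing of a small deletion or of protein. All 10 erythroid markers were at 1 FPKM or more in each K562 group and all 10 myelomonocytic markers at 1 CPM or more in SIGM5. Among markers of other cells, the stromal, endothelial and epithelial list summed to 899 to 926 FPKM in K01 TETi76 libraries and 401 to 440 FPKM in K01 DMSO libraries, with 3 and 4 of its 8 genes at 1 FPKM or more. KRT8 (522 FPKM under TETi76, 191 in DMSO) and KRT18 (350 FPKM under TETi76, 182 in DMSO) carried that sum, while COL1A1, COL1A2, DCN and VWF were near 0. The lymphoid list reached at most 22.9 FPKM in sum under TETi76 and 14.9 FPKM in DMSO, mostly from CD3D, with MS4A1 at 0. With ascorbate in both arms, the stromal, endothelial and epithelial list summed to 956 to 967 FPKM under both agents and 447 to 468 FPKM under ascorbate. There the lymphoid list summed to 28.4 to 39.3 FPKM and 12.3 to 21.3 FPKM, and the erythroid list to 6780 to 7020 FPKM and 9720 to 10100 FPKM, under both agents and under ascorbate. Their part in the results was not tested, and in bulk RNA fewer cells of a type and less RNA per cell cannot be told apart.

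Under TETi76 the 9 genes changed in both directions in K01. The transsulfuration enzymes CBS and CTH, the cystine carrier SLC7A11 and the glutathione-degrading enzyme CHAC1 fell, while the ligase chains GCLC and GCLM and the reductase GSR rose. GSS fell slightly and GPX4 did not pass the test. In all, 3 of the 9 genes rose and 5 fell at an adjusted p under 0.05, beside 9.61% and 13.7% of all 12527 genes tested (23.3% in both directions). The median log2 change was -0.31 over the 9 genes and -0.009 over all genes. The log2 changes are on the log2(FPKM + 1) scale, which understates the change of genes near 1 FPKM.

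**Figure D1:**
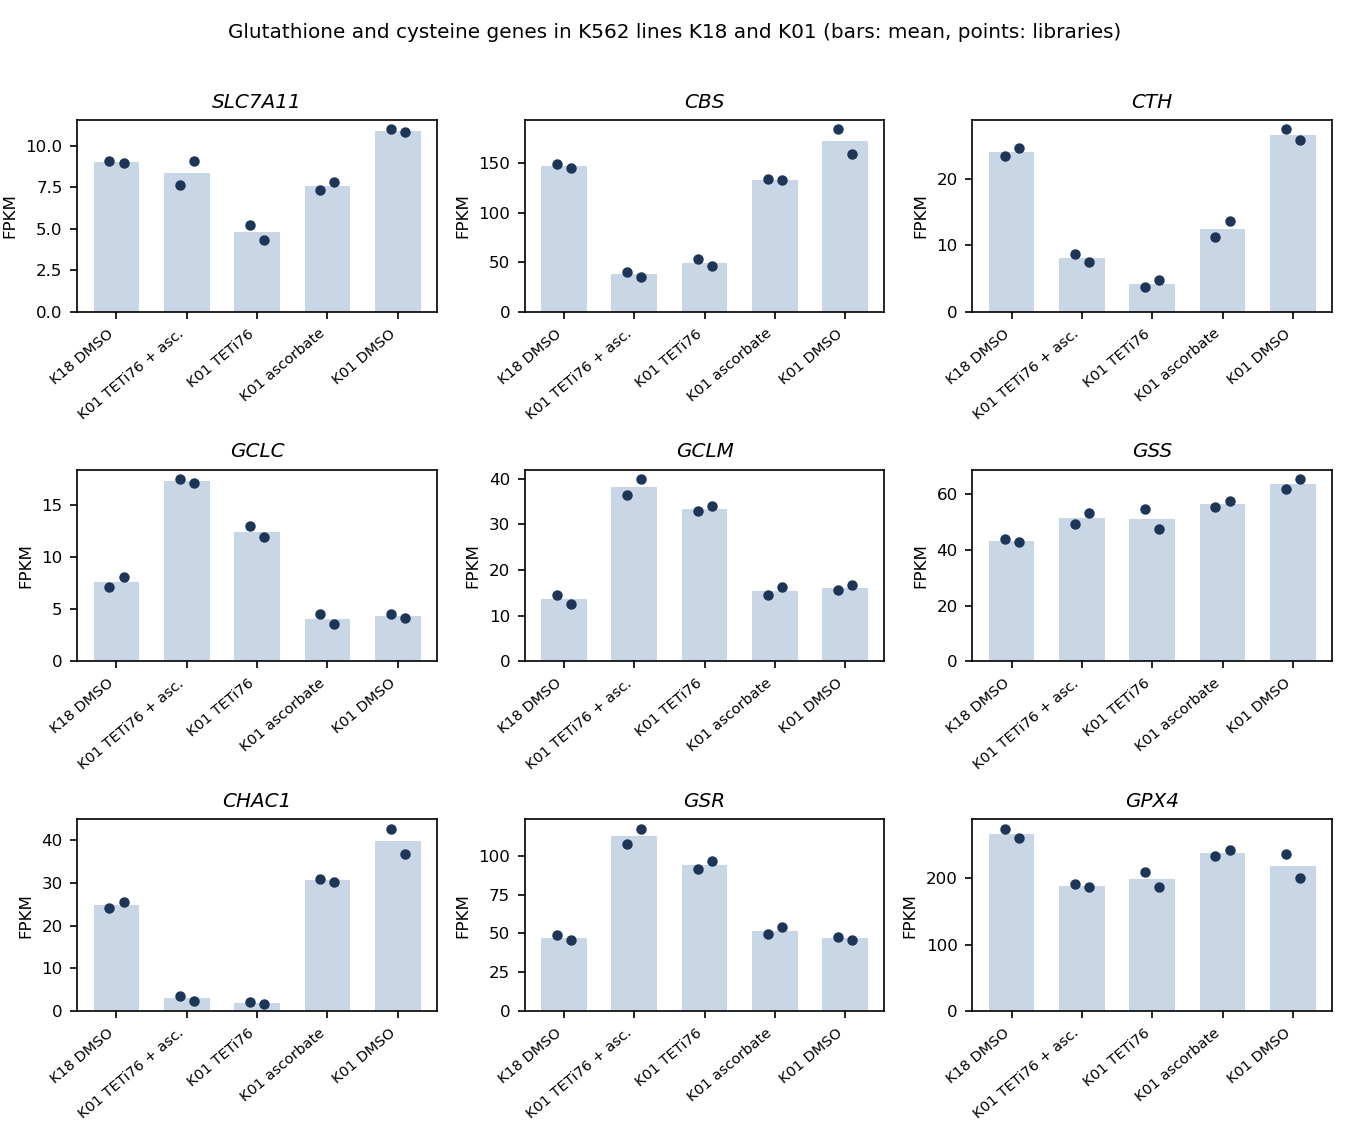
FPKM of the 9 genes in the K562 lines, with groups on the horizontal axis, bars at the mean of 2 libraries and points at each library (asc., ascorbate). CHAC1 stands at 1.56 to 3.64 FPKM in the 4 libraries that received TETi76 and at 24.0 to 42.7 FPKM in the 6 that did not.

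SLC7A11, the cystine-importing chain, was at 5.24 and 4.33 FPKM in TETi76 libraries and at 10.98 and 10.82 FPKM in DMSO libraries. Both treated libraries lay well below both controls, and the fall was -1.05 on the log2 scale (SE 0.13, limma adjusted p = 0.00068). Its partner chain SLC3A2, which also serves other amino acid carriers, rose instead, with 206.9 and 219 FPKM under TETi76 and 162 and 183 FPKM in DMSO (log2 0.31, SE 0.07, adjusted p = 0.01). The ratio of SLC7A11 to SLC3A2 in FPKM was 0.0253 and 0.0197 under TETi76 and 0.0677 and 0.0592 in DMSO.

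CBS, the entry enzyme of transsulfuration, stood at 53.0 and 46.3 FPKM with TETi76, against 184 and 159.6 FPKM in DMSO. The groups were far apart, at 0.289 times the control mean (log2 -1.77, SE 0.09, limma adjusted p = 3.07e-06). Reads from the near-identical copy annotated as CBSL in newer assemblies cannot be told apart from CBS. CTH, which releases the cysteine, fell further, to 3.73 and 4.79 FPKM under TETi76, against 27.4 and 25.8 FPKM in DMSO (log2 -2.40, SE 0.14, adjusted p = 6.45e-06). The DMSO mean of CTH was 6.25 times the TETi76 mean.

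GCLC, the catalytic chain of glutamate-cysteine ligase, reached 12.99 and 11.86 FPKM under TETi76, against 4.51 and 4.18 FPKM in DMSO. Its rise of 1.33 on the log2 scale (SE 0.13, limma adjusted p = 0.000163) was the highest of the 9 genes. GCLM, the modifier chain, was at 32.9 and 34.0 FPKM under TETi76 and at 15.6 and 16.7 FPKM in DMSO (log2 1.01, SE 0.11, adjusted p = 0.000207). The chains therefore rose together, with 2.86 and 2.07 times the DMSO means. GSS, which completes glutathione, had 54.6 and 47.5 FPKM with TETi76 and 61.8 and 65.3 FPKM with DMSO. Its fall was small (log2 -0.31, SE 0.08, limma adjusted p = 0.0258). The call was lost in 5 of 12 other settings, with adjusted p-values of up to 0.156: without either DMSO library, without TETi76 replicate 2, with quantile normalization and with only these groups fitted.

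CHAC1, the cytosolic enzyme that breaks glutathione down, showed the widest gap. It was at 2.16 and 1.56 FPKM in TETi76 libraries and at 42.7 and 36.7 FPKM in DMSO libraries. The DMSO mean was 21.3 times the TETi76 mean, and the log2 change was -3.83 (SE 0.17, limma adjusted p = 1.19e-06). GSR, the glutathione reductase, was at 91.7 and 96.3 FPKM under TETi76 and at 47.8 and 45.8 FPKM in DMSO. It rose to 2.01 times the DMSO mean (log2 0.99, SE 0.08, adjusted p = 3.46e-05). GPX4, the lipid hydroperoxidase, gave 209.9 and 187 FPKM under TETi76 and 237 and 200.2 FPKM in DMSO. Its groups overlapped, and the change of -0.13 had a 95% interval of -0.32 to 0.06 (adjusted p = 0.288).

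SIGM5 responded in fewer of these genes. GSR and GCLM rose under TETi76, and no gene fell. The count of 2 of 9 stands beside 4.13% of all 11340 genes tested with edgeR's quasi-likelihood test, of which 2.58% rose and 1.54% fell. The median log2 change was 0.14 over the 9 genes and 0.001 over all genes. The myelomonocytic markers summed to 18700 to 19300 CPM under TETi76 and 21800 to 21900 CPM in DMSO. MPO and LYZ made up most of that sum. CTSG (6.76 CPM under TETi76, 16.5 in DMSO) and ELANE (222 and 307) also had lower means under TETi76. The remaining members had higher means, such as ITGAM (34.8 CPM under TETi76, 13.6 in DMSO), CSF1R (14.8 and 8.12) and CD14 (7.81 and 4.47). Their part in these results was not tested.

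**Figure D2:**
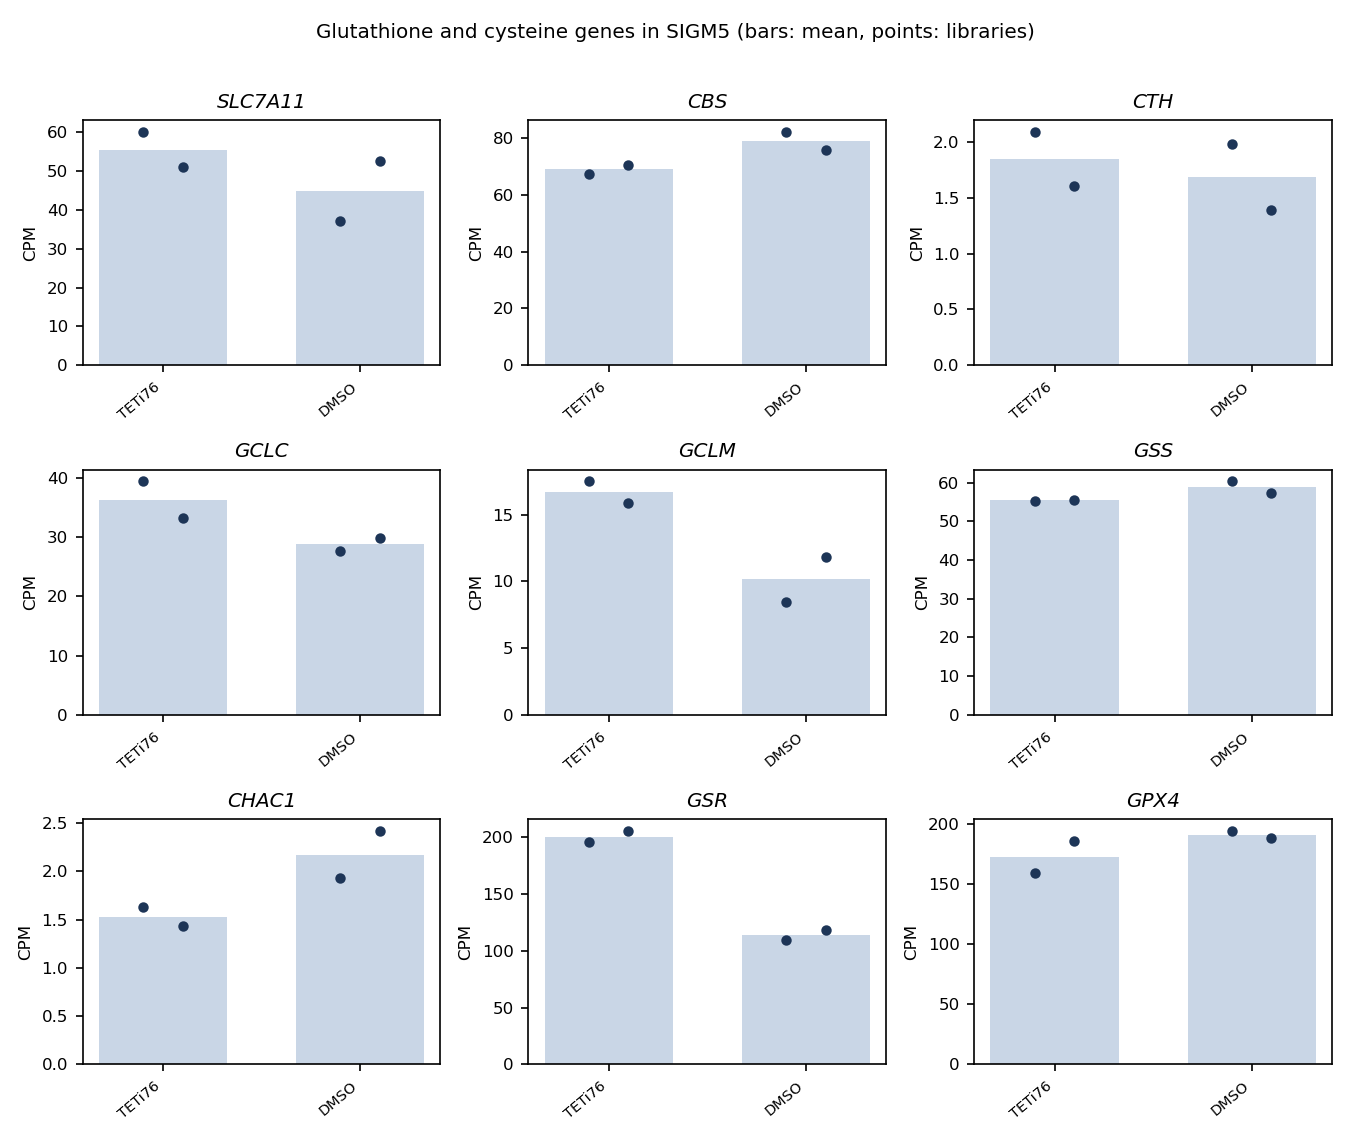
CPM of the 9 genes in SIGM5 under TETi76 and DMSO, with bars at the mean of 2 libraries and points at each library. GSR stands at 195 and 205 CPM under TETi76 and at 109.7 and 118 CPM in DMSO, and the CHAC1 and CTH panels run at about 2 CPM.

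GSR had 195 and 205 CPM in TETi76 libraries of SIGM5, against 109.7 and 118 CPM in DMSO libraries. This rise of 0.81 (SE 0.11, edgeR adjusted p = 3.9e-05) kept its call in all 10 other settings. GCLM was at 17.5 and 15.9 CPM with TETi76 and at 8.48 and 11.9 CPM with DMSO, from 418 and 366 counts and from 158 and 255 counts. Its rise of 0.71 (SE 0.17, adjusted p = 0.0168) was lost without either TETi76 library, where adjusted p reached 0.381.

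The other ligase chain, GCLC, was at 39.4 and 33.2 CPM under TETi76 and at 27.8 and 29.9 CPM in DMSO. The groups did not overlap, but the change of 0.33 missed the threshold (95% interval 0.06 to 0.60, edgeR adjusted p = 0.179). SLC7A11 gave 60.07 and 50.99 CPM under TETi76 and 37.1 and 52.6 CPM in DMSO, so that the groups overlapped (log2 0.31, adjusted p = 0.338). Without DMSO replicate 2 it was called, at a log2 change of 0.57, and without DMSO replicate 1 the change was 0.08 and was not called.

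CBS had 67.5 and 70.4 CPM under TETi76 and 82.18 and 75.96 CPM in DMSO (log2 -0.20, edgeR adjusted p = 0.398). CTH and CHAC1 were scarce in SIGM5. CTH had 50 and 37 counts under TETi76 and 37 and 30 counts in DMSO, with an interval of -0.57 to 0.85 for its log2 change. For CHAC1 the libraries held 39 and 33 counts under TETi76 and 36 and 52 counts in DMSO, with an interval of -1.19 to 0.17. Scaled to CPM these were 1.63 and 1.43 under TETi76 and 1.93 and 2.42 in DMSO, without overlap (log2 -0.51, edgeR adjusted p = 0.478). The intervals of CTH and CHAC1 were wide and both held 0, so the size and direction of any change were not resolved at these counts. GSS (55.4 and 55.4 CPM with TETi76, 60.3 and 57.2 CPM with DMSO) and GPX4 (159.9 and 187 CPM with TETi76, 194.5 and 188.4 CPM with DMSO) also missed the threshold, with adjusted p-values of 0.778 and 0.56.

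The TETi76 effects of the lines were then set against each other, as the difference of the log2 changes fitted in each table. Of the 9 genes, 5 differed: the effect in K01 was lower for CHAC1, CTH, CBS and SLC7A11 and higher for GCLC. Of all 9740 genes tested in both, 12% differed, 4.91% with a higher and 7.13% with a lower effect in K01. CHAC1 differed by -3.33 (SE 0.37, adjusted p = 1.46e-07), CTH by -2.54 (SE 0.37), CBS by -1.57 (SE 0.15) and SLC7A11 by -1.35 (SE 0.20). GCLC differed by 1.0 (SE 0.19, adjusted p = 0.000645). These 5 calls held in all 14 other settings. For GCLM the difference was 0.30 (95% interval -0.11 to 0.70) and for GSR 0.18 (-0.09 to 0.45), so the rises of both genes were not shown to differ between K01 and SIGM5, nor to be equal. The tables carry different units: a pseudocount of 1 was added to the FPKM of K562, while SIGM5 was fitted as counts.

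**Figure D3:**
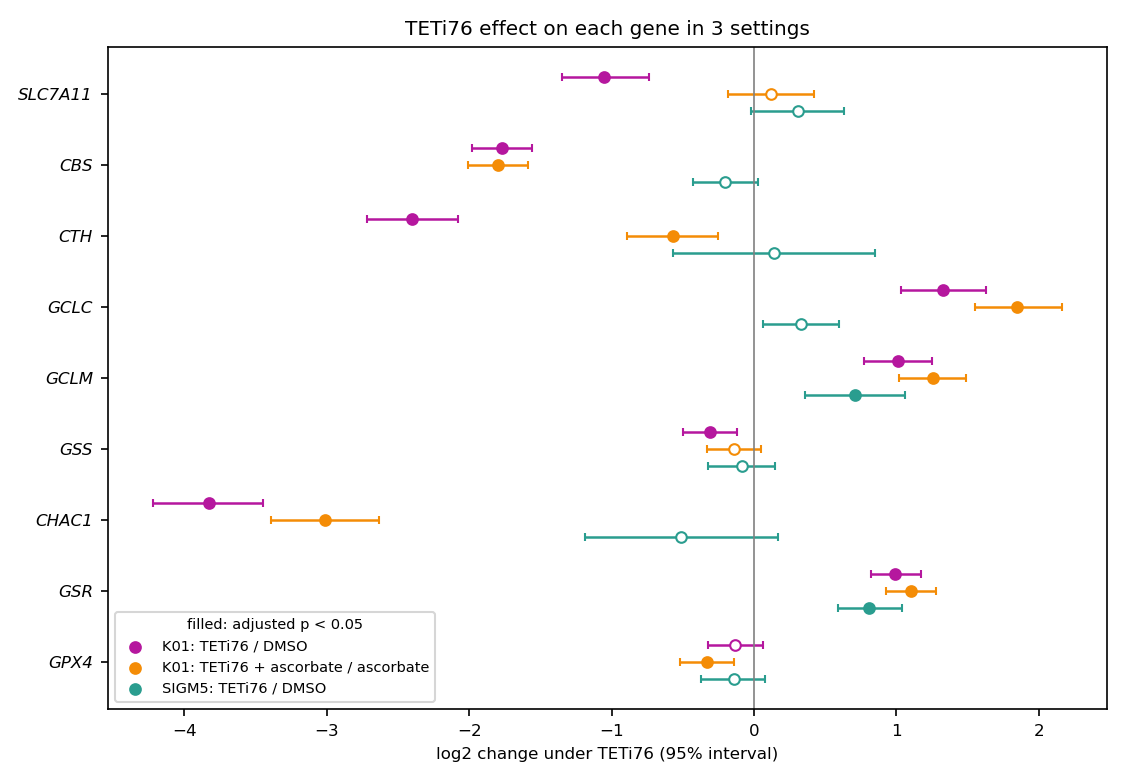
Log2 change of each gene under TETi76 in K01, in K01 with ascorbate in both arms, and in SIGM5, with 95% intervals not adjusted for the number of genes; filled points passed an adjusted p of 0.05. GCLM and GSR are filled and right of 0 in all 3 settings, and CHAC1, CTH and CBS are filled and left of 0 in both K01 comparisons and open in SIGM5.

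With ascorbate in both arms, TETi76 again raised GCLC, GCLM and GSR and lowered CHAC1, CBS and CTH in K01. SLC7A11 no longer differed detectably. Here 3 of 9 genes rose and 4 fell, beside 30.7% of all genes tested. GCLC was at 17.46 and 17.04 FPKM in TETi76 with ascorbate libraries and at 4.51 and 3.63 FPKM in ascorbate libraries (log2 1.85, SE 0.13, limma adjusted p = 1.68e-05). GCLM had 36.40 and 39.97 FPKM with both agents and 14.6 and 16.3 FPKM with ascorbate (log2 1.26, SE 0.11). GSR had 107 and 118 FPKM with both and 49.4 and 54.1 FPKM with ascorbate (log2 1.10, SE 0.08). For these genes every library with both agents lay above every library with ascorbate alone.

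CHAC1 was at 3.64 and 2.33 FPKM in TETi76 with ascorbate libraries and at 31.0 and 30.3 FPKM in ascorbate libraries (log2 -3.01, SE 0.17, limma adjusted p = 4.02e-06). CBS was at 40.1 and 35.5 FPKM with both agents and at 134 and 133 FPKM with ascorbate (log2 -1.80, SE 0.09). CTH fell less, to 8.77 and 7.43 FPKM with both, against 11.3 and 13.7 FPKM with ascorbate (log2 -0.57, SE 0.14, adjusted p = 0.0144). That call was lost in 3 of 12 other settings, without ascorbate replicate 2, without TETi76 with ascorbate replicate 2 and with only these groups fitted. GPX4 had 191.5 and 186.1 FPKM with both agents and 233.9 and 242.5 FPKM with ascorbate, a fall of -0.33 (SE 0.08, adjusted p = 0.0156) that was lost without the same libraries and with quantile normalization. GSS did not pass the test (log2 -0.14, adjusted p = 0.252). SLC7A11 was at 7.61 and 9.08 FPKM with both and at 7.33 and 7.80 FPKM with ascorbate, in overlapping groups (log2 0.12, 95% interval -0.18 to 0.42).

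Under ascorbate without TETi76, CTH fell and the other 8 genes did not pass the test, beside 0.479% of all genes called. CTH was at 11.3 and 13.7 FPKM with ascorbate and at 27.4 and 25.8 FPKM with DMSO, with no overlap (log2 -1.03, SE 0.14, limma adjusted p = 0.0204). The call was lost when any of these 4 libraries was left out or when the compared groups were fitted by themselves, with adjusted p-values of up to 0.164. SLC7A11 was lower in both ascorbate libraries, at 7.33 and 7.80 FPKM against 10.98 and 10.82 FPKM in DMSO, but missed the threshold (log2 -0.48, adjusted p = 0.21). CBS behaved alike, with 134 and 133 FPKM in ascorbate and 184 and 159.6 FPKM in DMSO (log2 -0.36, adjusted p = 0.179). The other 6 genes had log2 changes of -0.36 to 0.14 and adjusted p-values of at least 0.448.

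Added to TETi76, ascorbate raised CTH, to 8.77 and 7.43 FPKM against 3.73 and 4.79 FPKM with TETi76 alone (log2 0.79, SE 0.14, limma adjusted p = 0.0475). It was 1 of 9 genes, beside 0.726% of all genes, and the call was lost in 8 of 12 other settings, including without each of the 4 libraries. SLC7A11 stood at 7.61 and 9.08 FPKM with both agents and at 5.24 and 4.33 FPKM with TETi76 (log2 0.69, SE 0.13, adjusted p = 0.0613). CHAC1 remained low in both groups, at 3.64 and 2.33 FPKM with both and 2.16 and 1.56 FPKM with TETi76 (log2 0.47, adjusted p = 0.253). CBS pointed the other way, at 40.1 and 35.5 FPKM against 53.0 and 46.3 FPKM (log2 -0.38, adjusted p = 0.109).

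**Figure D4:**
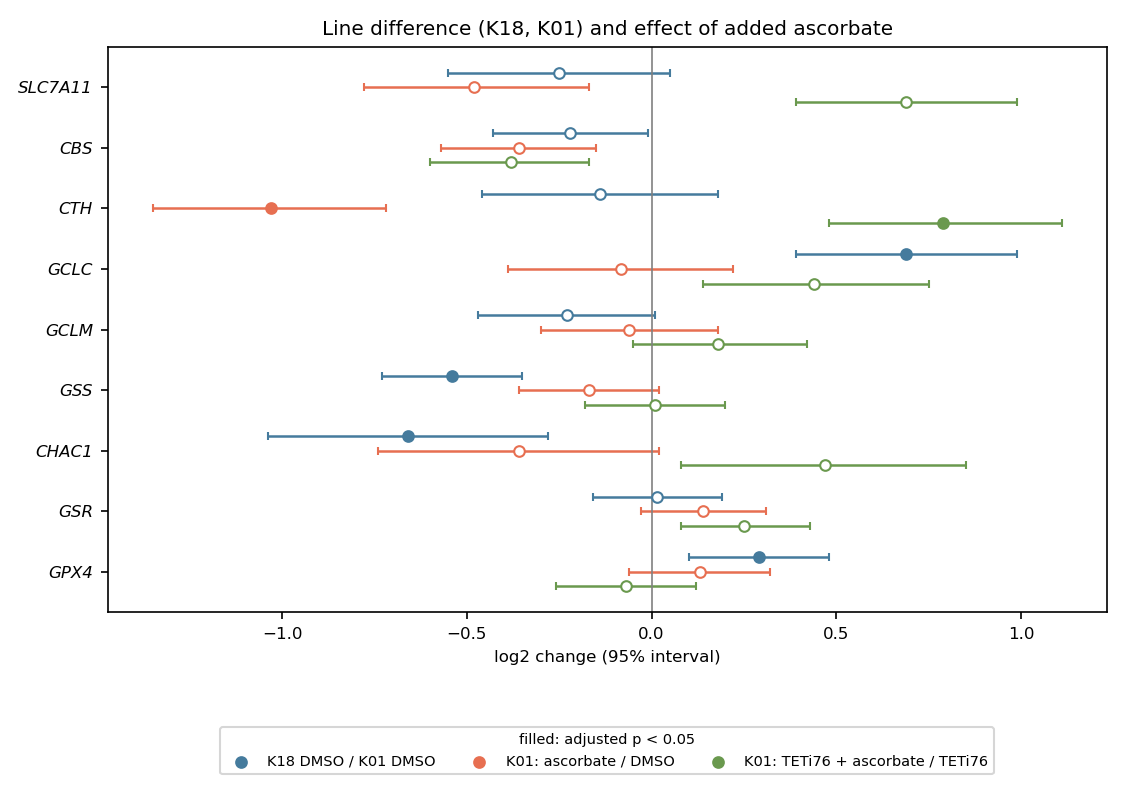
Log2 difference of each gene in K18 against K01 (both DMSO), under ascorbate against DMSO in K01, and under TETi76 with ascorbate against TETi76 in K01, with unadjusted 95% intervals; filled points passed an adjusted p of 0.05. CTH is the only gene filled in an ascorbate comparison, at -1.03 without and 0.79 with TETi76.

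The dependence of the TETi76 effect on ascorbate was tested as an interaction, the effect with ascorbate minus the effect without. CTH gave 1.83 (SE 0.20, limma adjusted p = 0.0106) and SLC7A11 gave 1.17 (SE 0.19, adjusted p = 0.0377). These 2 of 9 genes stand beside 0.631% of all genes tested, 0.279% with a positive and 0.351% with a negative interaction. For CTH the call was lost in 3 of 16 other settings, each without 1 library (K01 DMSO replicate 1, TETi76 replicate 1 or ascorbate replicate 2), and for SLC7A11 in 10 of 16, including without each library except TETi76 with ascorbate replicate 1. CHAC1 had a positive interaction of 0.83 that missed the threshold (95% interval 0.28 to 1.37, adjusted p = 0.189). For CBS, whose TETi76 effects were -1.80 with and -1.77 without ascorbate, the interaction was -0.026 (95% interval -0.32 to 0.27). SLC3A2, the partner of SLC7A11, had an interaction of 0.89 (SE 0.09, limma adjusted p = 0.0106). It was at 299.5 and 297 FPKM under both agents and at 206.9 and 219 FPKM under TETi76. Under ascorbate it was at 132 and 128 FPKM, and in DMSO at 162 and 183 FPKM. Its call, too, did not hold in every fit with 1 library left out.

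K18, the line labelled TET2-/-, differed from K01 in 4 of the 9 genes under DMSO, beside 15.1% of all genes tested, 6.87% higher and 8.21% lower in K18. GCLC was higher, at 7.13 and 8.12 FPKM in K18 and 4.51 and 4.18 FPKM in K01 (log2 0.69, SE 0.13, limma adjusted p = 0.00894), and so was GPX4, at 275 and 259.7 FPKM in K18 and 237 and 200.2 FPKM in K01 (log2 0.29, SE 0.08, adjusted p = 0.0456). GSS was lower, at 43.9 and 42.6 FPKM in K18 and 61.8 and 65.3 FPKM in K01 (log2 -0.54, SE 0.08, adjusted p = 0.00275). CHAC1 was lower too, at 24.0 and 25.4 FPKM in K18 and 42.7 and 36.7 FPKM in K01 (log2 -0.66, SE 0.17, adjusted p = 0.0301). Only the GSS call held in all 12 other settings; those of GCLC, GPX4 and CHAC1 were lost in 2, 5 and 6 of them. Replicate 2 of either line decided GCLC, any library but K01 DMSO replicate 1 decided GPX4, and any of the 4 decided CHAC1.

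The other 5 genes did not pass the test between the lines. CTH had 23.4 and 24.7 FPKM in K18 and 27.4 and 25.8 FPKM in K01, and GSR had 48.7 and 46.0 FPKM in K18 and 47.8 and 45.8 FPKM in K01. SLC7A11 was at 9.06 and 8.96 FPKM in K18 and at 10.98 and 10.82 FPKM in K01 (log2 -0.25, adjusted p = 0.257). GCLM (log2 -0.23) and CBS (log2 -0.22) also missed the threshold. The summed erythroid markers were 4470 to 4670 FPKM in K18 and 8370 to 9650 FPKM in K01. Globins carried that sum, chiefly HBE1 (1240 FPKM in K18, 4630 in K01), while GATA1 (180.0 and 174), KLF1 (84.4 and 75.9), EPOR (10.6 and 9.31) and ALAS2 (50.1 and 47.6) had no lower mean in K18. Their part in these differences was not tested. This comparison, the TETi76 effect and the ascorbate effect share the K01 DMSO libraries. Side by side, GCLC stood at 0.69 in K18 and 1.33 under TETi76, CHAC1 at -0.66 and -3.83, and GSS at -0.54 and -0.31. GPX4 stood at 0.29 and -0.13, GCLM at -0.23 and 1.01, and GSR at 0.015 and 0.99. For CTH the values were -0.14 and -2.40, for SLC7A11 -0.25 and -1.05, and for CBS -0.22 and -1.77.

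Since FPKM is scaled by gene length, the K562 levels can be ranked within a group. In K01 under TETi76 GPX4 was highest (198.5 FPKM mean) and GSR second (94.0), GSS (51.04) and CBS (49.67) overlapped, GCLM (33.4) and GCLC (12.4) followed, SLC7A11 (4.78) and CTH (4.26) overlapped, and CHAC1 (1.86) was last. In K01 DMSO the order was GPX4 (219 FPKM mean), CBS (172), GSS (63.5), GSR (46.8), CHAC1 (39.7), CTH (26.6), GCLM (16.1), SLC7A11 (10.9) and GCLC (4.35), and no neighbours overlapped. GPX4 was first in all 5 groups. The ratio of GCLC to GCLM was 0.395 and 0.349 under TETi76 and 0.29 and 0.251 in DMSO, so the modifier chain exceeded the catalytic chain in FPKM in all 10 libraries. CBS exceeded CTH by 4.57 and 4.78 times under both agents, 14.2 and 9.67 times under TETi76, 11.9 and 9.66 times under ascorbate, and 6.71 and 6.19 times in DMSO.

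The surrounding pathway was followed with 124 further genes in 10 lists, also chosen with earlier results of these data known. In K01 under TETi76, 14 of 101 tested rose and 30 fell, beside the 9.61% and 13.7% of all genes given above. With ascorbate in both arms 17 rose and 36 fell of 101, beside 12.8% and 17.8% of all genes. In SIGM5 8 rose and 2 fell of 102, beside 2.58% and 1.54% of all genes. Leaving out 1 library gave 29 to 35 calls in place of 44 in K01, and 2 to 20 in place of 10 in SIGM5. The median log2 change was -0.20 over the lists in K01 and -0.01 in SIGM5, beside -0.009 and 0.001 over all genes.

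**Figure D5:**
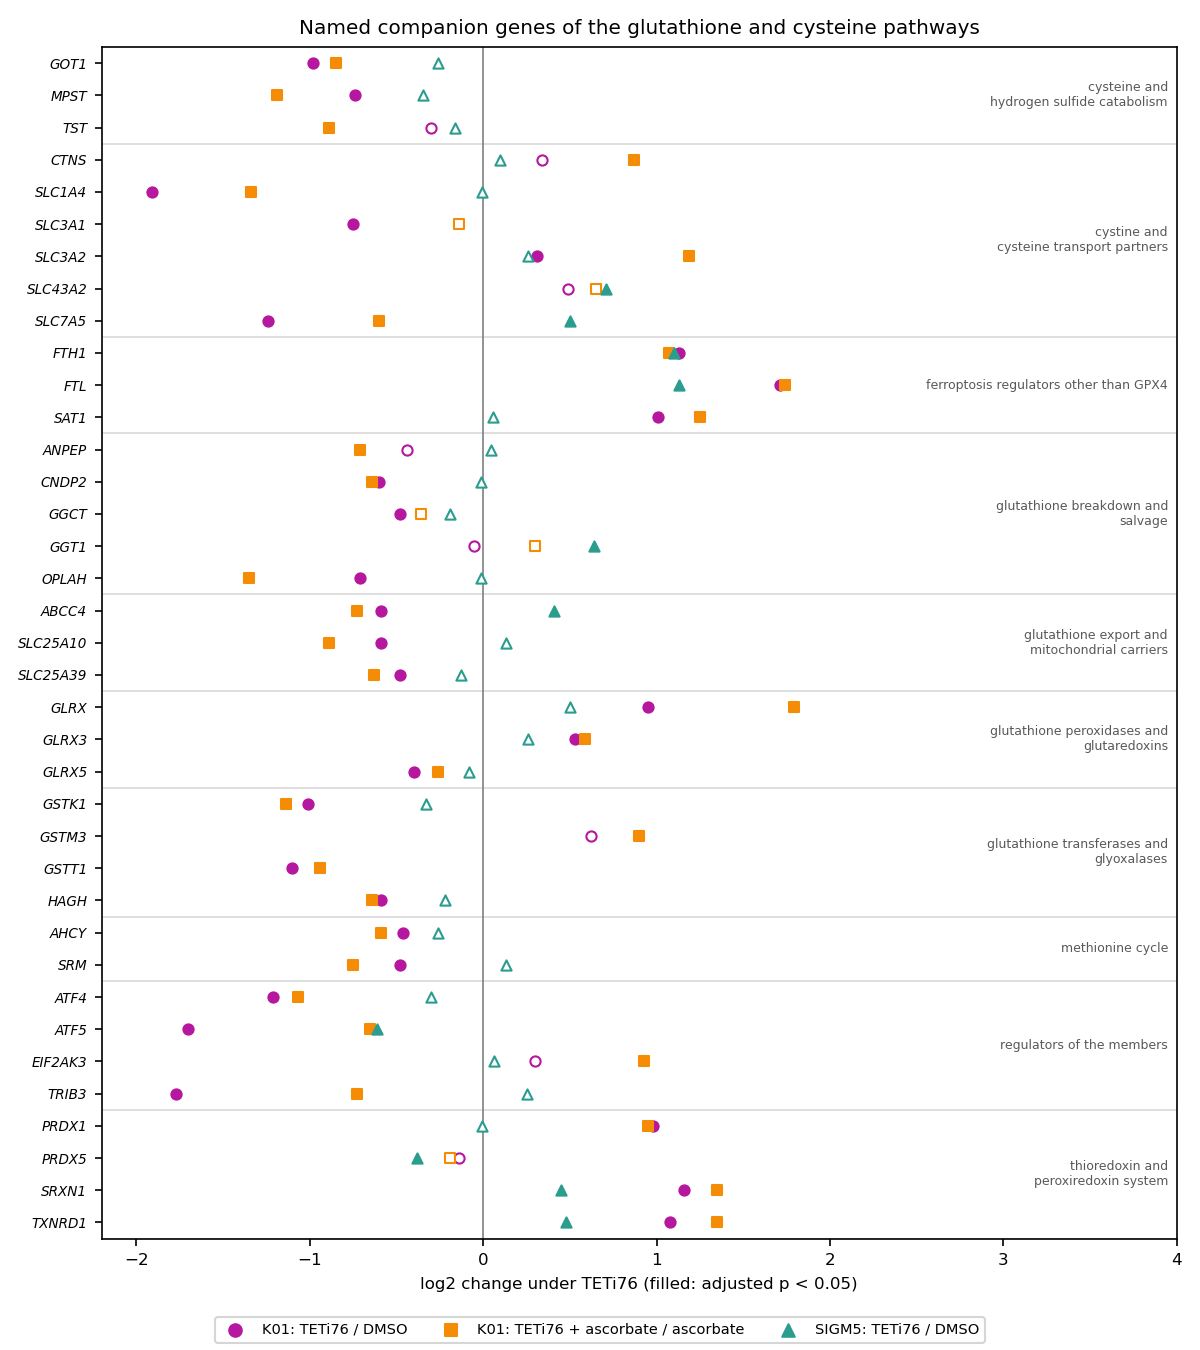
Log2 change under TETi76 of the genes named from the lists, in K01 (circles), in K01 with ascorbate in both arms (squares) and in SIGM5 (triangles); filled symbols passed an adjusted p of 0.05. SLC1A4, SLC7A5, ATF4, ATF5 and TRIB3 are filled and left of 0 in both K01 comparisons, while the ferritin chains and the thioredoxin genes TXNRD1 and SRXN1 are filled and right of 0 in all 3 settings.

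Among 8 transport genes tested in K01, SLC3A2 rose and 4 fell under TETi76, beside 9.61% and 13.7% of all genes. SLC1A4, a carrier of alanine, serine and cysteine, was at 6.33 and 6.03 FPKM under TETi76 and at 25.8 and 26.2 FPKM in DMSO (log2 -1.91, SE 0.10, limma adjusted p = 2.43e-06). SLC7A5, the large neutral amino acid carrier that brings in methionine, fell in K01 (log2 -1.24, SE 0.08) and rose in SIGM5 (log2 0.50, SE 0.10, edgeR adjusted p = 0.00604), a difference of -1.74 between the lines (adjusted p = 3.79e-11). SLC3A1, the partner chain of another cystine carrier, fell by 0.75 on the log2 scale in K01.

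Of 11 methionine cycle genes tested in K01, 1 rose and 6 fell under TETi76, beside 9.61% and 13.7% of all genes. The same shares stand beside the K01 counts that follow here. AHCY, which releases homocysteine, changed by -0.46, and the spermidine synthase SRM by -0.48. In SIGM5 none of 12 passed, beside 4.13% of all genes. Of 6 genes of cysteine and sulfide catabolism, GOT1 (log2 -0.98) and MPST (log2 -0.74) fell in K01 and none passed in SIGM5. Of 8 genes of glutathione breakdown and salvage, 3 fell in K01: OPLAH, the 5-oxoprolinase, CNDP2, a dipeptidase that cleaves cysteinylglycine, and GGCT, which forms 5-oxoproline, at -0.71, -0.60 and -0.48. The extracellular enzyme GGT1, which has near-identical relatives, rose in SIGM5 (log2 0.64, SE 0.13, edgeR adjusted p = 0.00512).

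Among glutathione users, 2 glutaredoxin genes rose and 1 fell of 5 genes tested in K01, beside 9.61% and 13.7% of all genes. The K01 counts of the other lists in this paragraph stand beside the same shares. GLRX was at 6.77 and 10.8 FPKM under TETi76 and at 3.08 and 4.98 FPKM in DMSO (log2 0.95, SE 0.23, limma adjusted p = 0.0163). GLRX3 changed by 0.53, and GLRX5, which serves mitochondrial iron-sulfur cluster assembly, by -0.40. Of 15 glutathione transferase and glyoxalase genes, 4 fell in K01 and none rose, led by GSTT1 (log2 -1.10) and GSTK1 (log2 -1.01), with HAGH at -0.59. Reads of GSTT1 may be shared with near-identical copies. Export pumps and mitochondrial carriers gave 3 falls of 7, ABCC4 and SLC25A10 at -0.59 each and SLC25A39, a mitochondrial glutathione carrier, at -0.48. ABCC4 rose in SIGM5 (log2 0.41, SE 0.11, edgeR adjusted p = 0.0369).

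Of 13 genes of the parallel thioredoxin system, 5 rose and 2 fell in K01, beside 9.61% and 13.7% of all genes. The median log2 change over the list was -0.14. With ascorbate in both arms 4 rose and 4 fell, beside 12.8% and 17.8% of all genes. TXNRD1, the thioredoxin reductase, was at 132 FPKM in both TETi76 libraries and at 63.8 and 59.9 FPKM in DMSO (log2 1.08, SE 0.07, limma adjusted p = 1.11e-05). SRXN1, which repairs overoxidised peroxiredoxins, changed by 1.16 in K01 and PRDX1, a peroxiredoxin with near-identical copies, by 0.98. In SIGM5, TXNRD1 (log2 0.48) and SRXN1 (log2 0.45) rose, while PRDX5 fell by 0.38 on the log2 scale at the edge of the threshold. Of 15 other ferroptosis regulators 4 rose and 4 fell in K01 with ascorbate in both arms, beside 12.8% and 17.8% of all genes. Under TETi76 without ascorbate 4 rose and 1 fell in K01, beside 9.61% and 13.7% of all genes. Both ferritin genes, whose many processed copies may share reads with them, rose there and in SIGM5: the light chain FTL by 1.71 in K01 and 1.13 in SIGM5, and the heavy chain FTH1 by 1.13 and 1.10, on the log2 scale. SAT1, the spermidine acetyltransferase, rose in K01 (log2 1.01, SE 0.08, adjusted p = 4.09e-05) and stood at 0.055 in SIGM5.

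Among 13 known regulators of these genes, 4 rose and 3 fell in K01 with ascorbate in both arms, beside 12.8% and 17.8% of all genes. Without ascorbate 1 rose and 4 fell, beside 9.61% and 13.7% of all genes. ATF4 itself was at 162 and 172 FPKM in TETi76 libraries and at 388 FPKM (387.5 and 388.3) in DMSO libraries (log2 -1.21, SE 0.06, limma adjusted p = 1.25e-06). TRIB3, an ATF4 target and inhibitor, changed by -1.77 and ATF5 by -1.70. Like CTH, TRIB3 had a positive interaction with ascorbate (1.03, SE 0.13, limma adjusted p = 0.0143). Its means were 44.6 FPKM under both agents, 39.8 under TETi76, 74.7 under ascorbate and 138 in DMSO. This call did not hold in every fit with 1 library left out. In SIGM5 ATF5 fell (log2 -0.61, SE 0.15, edgeR adjusted p = 0.0278), ATF4 stood at -0.30 (adjusted p = 0.149) and TRIB3 at 0.25 (adjusted p = 0.225). RNA levels do not report the translation of ATF4 or the stability of NRF2, by which these factors are mainly controlled.

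For the 7 genes whose K562 group means spanned at least 1 on the log2 scale, genes with the most similar profile over the 10 K562 libraries were found by Pearson correlation of log2(FPKM + 1). These values describe 10 libraries that share 5 groups. GSR was closest to TXNRD1 (r = 0.9958) and to PKM, a pyruvate kinase (r = 0.9934). GCLM was closest to JUN (r = 0.9919) and to SOD1, the cytosolic superoxide dismutase (r = 0.9909), and GCLC to TPM4 (r = 0.9869) and IER3 (r = 0.9844). CHAC1 was closest to CCDC71L (r = 0.9901) and NDUFV1 (r = 0.9892), CBS to H1FX (r = 0.9912) and ATP2A3 (r = 0.9906), and CTH to CLIC4 (r = 0.9726) and G0S2 (r = 0.9649). For SLC7A11, MAP1B was at r = 0.9123. GSS and GPX4, whose means spanned 0.54 and 0.50, were not matched.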

How the data were processed

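Poly(A) RNA of 14 libraries was sequenced, and the submitters' processing notes name hg19, STAR, edgeR 3.24.3 and limma 3.38.3. The authors deposited raw counts per gene for SIGM5 and, for K562, values that behave as FPKM. Their sums varied less between libraries when weighted by gene length, with a coefficient of variation of 2.5% against 5.35%. The unit was also known from an earlier report on these data. The K562 quantifier is not given in the sources used here, and FPKM and RPKM cannot be told apart. CPM values were computed here from the deposited counts with TMM library sizes. The quasi-likelihood test of edgeR 4.0.16, after filterByExpr, was run on the counts, and log2(FPKM + 1) was fitted with limma 3.58.1 (trend, robust) over all 10 K562 libraries, for genes at 1 FPKM or more in at least 2 libraries, in R 4.3.3. Benjamini-Hochberg adjustment ran over all genes tested and the threshold was 0.05. The SE of a SIGM5 change was derived as its absolute log2 change over the square root of the quasi-likelihood F statistic. SIGM5 intervals and the differences between K01 and SIGM5 effects rest on that SE. These differences used a Satterthwaite approximation to the degrees of freedom. Intervals cover 95% and are not adjusted. Before testing, 26 rows without a gene name (at most 0.0657% of a library) and 2284 short-RNA rows of the K562 table were left out, and no column was left unused. Alternatives were other normalizations, filters and pseudocounts, DESeq2 1.42.0, a replicate block, only the compared groups, and each library left out. The scripts were tested on simulated data.

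The 9 genes and the lists were chosen with earlier results of these data known. Named genes of the lists are up to 3 per list and TETi76 comparison with the highest absolute log2 change among those called, and SLC3A2. The most similar profiles are the 2 genes with the highest Pearson r among those averaging at least 5 FPKM. The 9 genes themselves were passed over, as were antisense and short RNAs and genes with provisional symbols. A count of whole reads within 0.01 read could be recovered for 3 of the 9 genes in K562, so counting intervals were not made there. Some genes that these rules name are not reported here.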

Additional observations from a re-analysis of the deposited data

Results flagged for a closer look

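The effect of TETi76 in K01 differed with and without ascorbate for CTH, by 1.83 on the log2 scale (SE 0.20, limma adjusted p = 0.0106), and for SLC7A11, by 1.17 (SE 0.19, adjusted p = 0.0377). For CTH the TETi76 effect was -0.57 with ascorbate and -2.40 without. For SLC7A11 it was 0.12 with ascorbate and -1.05 without. The SLC7A11 call was lost in 10 of 16 other settings, 7 of them leaving out 1 library, and the CTH call in 3 of 16.

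The effect of TETi76 differed between K01 and SIGM5 for 5 genes, tested as the difference of the log2 changes. CHAC1 differed by -3.33 and CTH by -2.54, with few reads of both genes in SIGM5. CBS differed by -1.57, SLC7A11 by -1.35 and GCLC by 1.0, and all 5 adjusted p-values were at most 0.000645.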

How the results depend on the processing

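With 2 libraries per group, small differences could not be detected. In SIGM5 CTH had 30 to 50 counts per library and CHAC1 had 33 to 52, and their intervals were wide. Of 900 values recomputed for the 9 genes, 827 kept direction and side of the threshold, 52 lost the threshold, 4 gained it and 17 changed sign, all of the last not called. The 5 calls of the difference between K01 and SIGM5 held in every setting. The number of genes called under TETi76 in K01 stayed at 7 to 8 (8 as reported), and with ascorbate in both arms at 5 to 7 (7 as reported).

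In SIGM5 (2 called) leaving out 1 library gave 1 to 3. For ascorbate alone (1 called), fitting only the compared groups gave 0, and so did leaving out each library (0 to 0). For TETi76 with ascorbate against TETi76 (1 called), no filter, quantile normalization and only the compared groups gave 0, the filter at 5 FPKM gave 2, and leaving out a library gave 0 to 0. For the interaction (2 called), no filter and only the compared groups gave 1, and leaving out a library 0 to 2. For K18 against K01 (4 called), no filter gave 2 and leaving out a library 1 to 3. The cause of these changes was not tested.

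Same-numbered replicates did not deviate together, with correlations of -0.164 in SIGM5 and -0.0241 to 0.0541 in K562, so the numbers were not taken as pairs. A replicate block gave 0 for TETi76 with ascorbate against TETi76, 1 for the interaction and 2 in SIGM5. The crossed pairing in SIGM5, chosen after seeing the data, gave 4.

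Sign changes were small and touched no called gene. With 1 library left out, CTH in SIGM5 ranged over -0.11 to 0.41, the ascorbate effect over -0.21 to 0.043 for GCLC and -0.14 to 0.013 for GCLM, and the change from adding ascorbate to TETi76 over -0.09 to 0.11 for GSS and -0.15 to 0.012 for GPX4. In the same way the CBS interaction ranged over -0.13 to 0.077, GSR in K18 against K01 over -0.026 to 0.056, and the GPX4 difference between K01 and SIGM5 over -0.11 to 0.13. GSS with ascorbate in both arms was 0.033 after quantile normalization.

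Over all genes, leaving out 1 library gave 1669 to 1796 calls for TETi76 in K01 (2922 as reported), 110 to 1206 in SIGM5 (468), 2701 to 2943 with ascorbate in both arms (3843), 0 to 6 for ascorbate alone (60), 2 to 62 for TETi76 with ascorbate against TETi76 (91), 0 to 69 for the interaction (79), 784 to 969 for K18 (1888) and 522 to 1486 for the difference between lines (1172). Other settings gave 344 to 1291 in SIGM5, 0 to 80 for ascorbate alone, 0 to 132 for TETi76 with ascorbate against TETi76 and 26 to 136 for the interaction.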
